A study of Homo sapiens with 6 samples.

Results

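Potassium channels open a pore for potassium ions across the membrane, set the resting potential and end action potentials, and their genes carry symbols that begin with KCN. All 96 protein-coding KCN genes on chromosomes 1 to 22 and X were taken from GENCODE v44, out of 19970 protein-coding genes on the same chromosomes, by symbol. The promoter of a gene was the DNA within 1500 bp on either side of any of its annotated transcript starts. The data were reChIP-seq peak lists of parental NCI-H661 cells, a human large cell lung carcinoma line, grown without a treatment. In reChIP-seq, chromatin pulled down by a first antibody is released and pulled down again by a second antibody, so that DNA recovered at the end carried both marks on the same fragment. K4–K119 stands for H3K4me3 followed by H2AK119ub, K119–K4 for the reverse order, and IgG–IgG for control antibody in both steps, with 2 biological replicates each and 6 libraries in all. H3K4me3 is a histone mark of active and poised promoters, and H2AK119ub is placed by Polycomb repressive complex 1, which keeps developmental genes silent. Many potassium channel genes serve neurons, heart muscle or hair cells and are silent in most other tissues.

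The peak lists hold reads inside peaks only, so the sequencing depth is unknown. Kept peaks, those with the authors' log2 fold over input above 1 and an FDR below 0.05, numbered from 104052 to 188585 in the reChIP libraries and 28626 and 31670 in the IgG–IgG libraries. The median kept peak had 2 reads in each of the 6 libraries, so each value below is given as reads. One reChIP library stood apart in its folds: the authors' scale between reads and input reads was 0.328 in K4–K119 replicate 1 and between 3.62 and 4.74 in the other 3 reChIP libraries, so a given read count met the fold filter more easily there. A peak was called reproducible when the 2 replicates of an order overlapped by more than 25% of both peaks, and a reciprocal region was a place where reproducible peaks of both orders overlapped by the same rule. The leading promoter peak is the kept peak with the most reads at a gene's promoters in 1 library; leading peaks of different libraries need not overlap.

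Of the 96 potassium channel genes, 13 (13.5%) had a reciprocal region at a promoter, beside 20.9% of all protein-coding genes. A reproducible K4–K119 peak lay at 30 of them (31.2%, beside 33.0% of all genes), and a reproducible K119–K4 peak at 23 (24.0%, beside 30.0%). Those described here are the voltage-gated channel genes KCNC1, KCNC4, KCNG2, KCNG3, KCNH2, KCNH6 and KCNS3, the inward rectifier genes KCNJ4 and KCNJ12, and KCNK4, a gene of a two-pore-domain leak channel. Another 2 genes had reproducible peaks of both orders that overlapped by less than this rule or not at all, 15 had one in K4–K119 alone, 8 in K119–K4 alone, and 58 in neither order. No test was made on any of these counts. For the genes split in this way by order, no share of all genes was counted, so those counts are not compared. Without K119–K4 replicate 2, 20 genes had a reciprocal region, beside 27.0% of all genes, and without K4–K119 replicate 2 there were 18, beside 27.2%. With no filter on the fold, 18 genes (18.8%) had one, beside 30.2% of all genes. With a log2 fold above 2 only 6 genes had one, and the shares were close, 6.25% and 6.28%. Under every other alternative the share among potassium channel genes was below that of all genes.

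**Figure D1:**
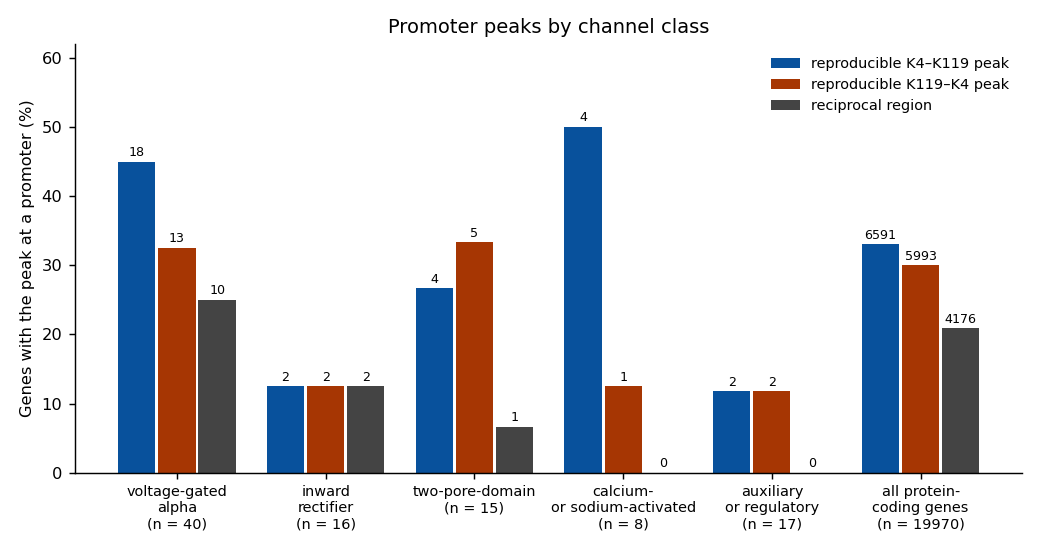
Share of genes with a reproducible K4–K119 peak, a reproducible K119–K4 peak or a reciprocal region at a promoter, by class of potassium channel gene and for all protein-coding genes. The vertical axis is percent of the genes in the class, the number above each bar is the count of genes, and the voltage-gated alpha subunits hold 10 of the 13 genes with a reciprocal region.

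Promoter sequence gives a first view of these groups. RefSeq promoter entries (GRCh38.p14) matched 72 of the 96 genes, and 7 are shown here for the 250 bases before the canonical transcript start, none of which is covered by an annotated exon. Capitals mark each CG, the dinucleotide that is dense in CpG islands; CG is its own reverse complement, so both strands hold the same number. Of all 35116 entries, 93.9% held at least 1 CG in these 250 bases, and the median was 11. The first 3 genes had a reciprocal region, KCNA3 and KCNA7 are CpG-rich with no reproducible peak, and KCNE5 and KCNJ16 lacked a peak of 10 reads in every library. The positions in hg38 are chr1:110210064-110210313 on the plus strand (KCNC4), chr2:42493983-42494232 on the minus strand (KCNG3), chr11:64291052-64291301 on the plus strand (KCNK4), chr1:110674941-110675190 on the minus strand (KCNA3), chr19:49072700-49072949 on the minus strand (KCNA7), chrX:109625173-109625422 on the minus strand (KCNE5) and chr17:70074975-70075224 on the plus strand (KCNJ16).
KCNC4: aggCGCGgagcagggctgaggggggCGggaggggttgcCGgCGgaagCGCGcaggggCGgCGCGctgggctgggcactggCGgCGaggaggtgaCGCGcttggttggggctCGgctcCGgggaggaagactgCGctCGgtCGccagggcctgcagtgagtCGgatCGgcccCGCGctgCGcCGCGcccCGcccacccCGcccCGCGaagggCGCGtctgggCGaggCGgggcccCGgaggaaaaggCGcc
KCNG3: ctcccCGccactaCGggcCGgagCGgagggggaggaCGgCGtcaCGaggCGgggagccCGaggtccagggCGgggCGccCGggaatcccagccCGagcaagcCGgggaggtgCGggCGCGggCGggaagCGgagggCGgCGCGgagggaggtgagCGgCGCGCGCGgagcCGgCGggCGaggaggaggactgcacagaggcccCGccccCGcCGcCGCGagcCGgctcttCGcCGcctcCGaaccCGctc
KCNK4: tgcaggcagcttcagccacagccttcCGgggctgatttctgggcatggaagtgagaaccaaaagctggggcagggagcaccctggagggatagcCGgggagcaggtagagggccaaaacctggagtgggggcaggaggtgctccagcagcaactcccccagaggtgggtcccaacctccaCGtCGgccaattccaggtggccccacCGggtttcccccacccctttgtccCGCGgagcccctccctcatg
KCNA3: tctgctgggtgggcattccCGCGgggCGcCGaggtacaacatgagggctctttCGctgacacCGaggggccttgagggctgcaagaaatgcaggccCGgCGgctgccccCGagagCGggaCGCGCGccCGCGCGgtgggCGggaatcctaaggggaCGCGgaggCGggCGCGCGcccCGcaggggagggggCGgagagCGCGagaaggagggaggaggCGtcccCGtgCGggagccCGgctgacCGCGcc
KCNA7: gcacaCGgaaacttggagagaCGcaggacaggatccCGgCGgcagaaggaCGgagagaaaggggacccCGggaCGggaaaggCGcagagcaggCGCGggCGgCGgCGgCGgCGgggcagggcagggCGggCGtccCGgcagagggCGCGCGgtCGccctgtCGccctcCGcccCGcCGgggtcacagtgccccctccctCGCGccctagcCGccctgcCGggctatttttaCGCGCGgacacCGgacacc
KCNE5: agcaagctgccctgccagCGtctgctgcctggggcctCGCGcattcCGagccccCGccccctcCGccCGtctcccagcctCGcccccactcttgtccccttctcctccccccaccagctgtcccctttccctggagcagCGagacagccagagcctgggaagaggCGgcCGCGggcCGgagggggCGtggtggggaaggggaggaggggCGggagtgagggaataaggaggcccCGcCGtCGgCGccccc
KCNJ16: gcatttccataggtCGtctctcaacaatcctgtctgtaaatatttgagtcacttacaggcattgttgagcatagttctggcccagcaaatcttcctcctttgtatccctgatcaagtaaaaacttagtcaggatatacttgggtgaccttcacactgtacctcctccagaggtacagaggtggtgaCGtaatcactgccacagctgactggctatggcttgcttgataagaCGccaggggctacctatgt
KCNC4 held 36 CG and KCNG3 held 40, and a kept peak overlapped each window in all 4 reChIP libraries. KCNK4 had 7, fewer than the median entry, and a kept peak overlapped its window in each of the 4 reChIP libraries as well, but in K4–K119 replicate 2 by a peak of 2 reads, as the leading peak there began beyond the window. KCNA3 and KCNA7 held 33 and 34 CG, and a kept peak overlapped them in K4–K119 replicate 1 alone. KCNE5 held 19 and KCNJ16 held 3, with no kept peak over either window.

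At least 10 reads in the leading promoter peak were found in all 4 reChIP libraries at 12 of the 96 genes (12.5%, beside 19.8% of all genes). They were found in 3 libraries at 7 (7.29%, beside 11.8%) and in 2 at 13 (13.5%, beside 12.6%). In 1 library they were found at 34 (35.4%, beside 26.8%), and in none at 30 (31.2%, beside 29.1%). Of those 34 genes, 33 reached 10 reads in K4–K119 replicate 1, the library with the lowest input scale. These 33 were 34.4% of the 96 genes, beside 26.6% of all genes. A kept peak of any size in at least 1 reChIP library was found at 91 genes, with no share of all genes counted. The other 5 were KCNJ1, a renal inward rectifier gene, KCNU1, the gene of a sperm potassium channel, KCNMB1 and KCNE5, which encode auxiliary subunits, and KCNRG, a regulator gene.

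Voltage-gated alpha subunits form the pore of channels that open on depolarization, and 10 of the 13 genes with a reciprocal region belong to them. Of all 40 genes these are 25%, beside 20.9% of all protein-coding genes, while 18 (45.0%, beside 33.0%) had a reproducible K4–K119 peak and 13 (32.5%, beside 30.0%) a reproducible K119–K4 peak. The median CpG count around the canonical start was 185 in this class and 115 in all genes. KCNQ genes encode channels of low threshold in neurons, heart and epithelia. KCNQ5 had 142 and 2 reads with H3K4me3 first (K4–K119, replicates 1 and 2) and 64 and 9 with H2AK119ub first (K119–K4), and its peaks were reproducible with H2AK119ub first. Pairs of reads are given in this order throughout. KCNQ1, the cardiac and epithelial member, held 166 and 0 against 96 and 2, and the fold filter had removed a peak of 63 reads from K4–K119 replicate 2 (log2 fold 0.67). KCNQ3 held 121 and 0 against 0 and 7.

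The KCNC genes encode fast delayed rectifiers of rapidly firing neurons. KCNC4 held 309 and 195 reads with H3K4me3 first and 417 and 154 with H2AK119ub first, in a region of 3300 bp from 110209201 to 110212500 on chromosome 1. KCNC1 held 215 and 80 against 139 and 40 reads, from 17734401 to 17736500 on chromosome 11. At both genes the region contained the canonical start and exon 1, and the lowest library was K119–K4 replicate 2. With all kept peaks over the region summed, the lowest count at KCNC4 was 156 and at KCNC1 42. It exceeded that of 89.4% of the 4015 reciprocal regions at KCNC4 and of 38.2% at KCNC1. KCNC2, with 62 CpG around its canonical start, had 10 and 2 against 2 and 0 reads.

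KCNG and KCNS genes encode electrically silent subunits that modify other voltage-gated channels. KCNG3 held 250 and 123 reads with H3K4me3 first and 311 and 103 with H2AK119ub first over 3300 bp from 42491801 to 42495100 on chromosome 2, a region that also lay at a promoter of MTA3, the gene of a chromatin remodelling subunit. KCNG2 held 150 and 77 against 99 and 38 reads, from 79797001 to 79799500 on chromosome 18. KCNS3 held 139 and 46 against 53 and 20 reads, from 17877501 to 17880100 on chromosome 2. In all 3, the second K119–K4 replicate was the lowest library. KCNG1 and KCNS2 had reproducible peaks in K4–K119 alone. KCNG1 held 273 and 137 reads there, and 278 reads in K119–K4 replicate 1 but no kept peak in replicate 2. KCNS2 held 452 and 164 reads in K4–K119 and no kept peak in either K119–K4 library; K119–K4 replicate 1 had 210 reads in a peak left out for its log2 fold of 0.71.

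Of the 8 KCNH genes, KCNH2 and KCNH6 had a reciprocal region. KCNH2, which encodes the hERG channel of cardiac repolarization, held 306 and 126 reads with H3K4me3 first and 283 and 59 with H2AK119ub first, from 150976401 to 150979900 on chromosome 7. KCNH6 held 27 and 7 against 5 and 2 reads over 1000 bp from 63522701 to 63523700 on chromosome 17. No reciprocal region had a lower count in its weakest library than the 2 reads at KCNH6, and its region was lost in 6 of 15 alternatives, including a minimum of 10 reads per peak. KCNH3 had a reproducible peak in K4–K119 alone, with 341 and 157 reads there and 323 and 2 in K119–K4. Its K119–K4 replicate 2 also had a peak of 51 reads with a log2 fold of 0.82, below the filter. KCNA, KCND, KCNF and KCNV genes, also of this class, had no reciprocal region. KCNA2, a channel gene of myelinated axons, came near with 200 and 69 reads in K4–K119; its K119–K4 peaks of 60 and 24 reads had log2 folds of 0.49 and 0.73, and the kept ones had 2 and 2 reads.

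**Figure D2:**
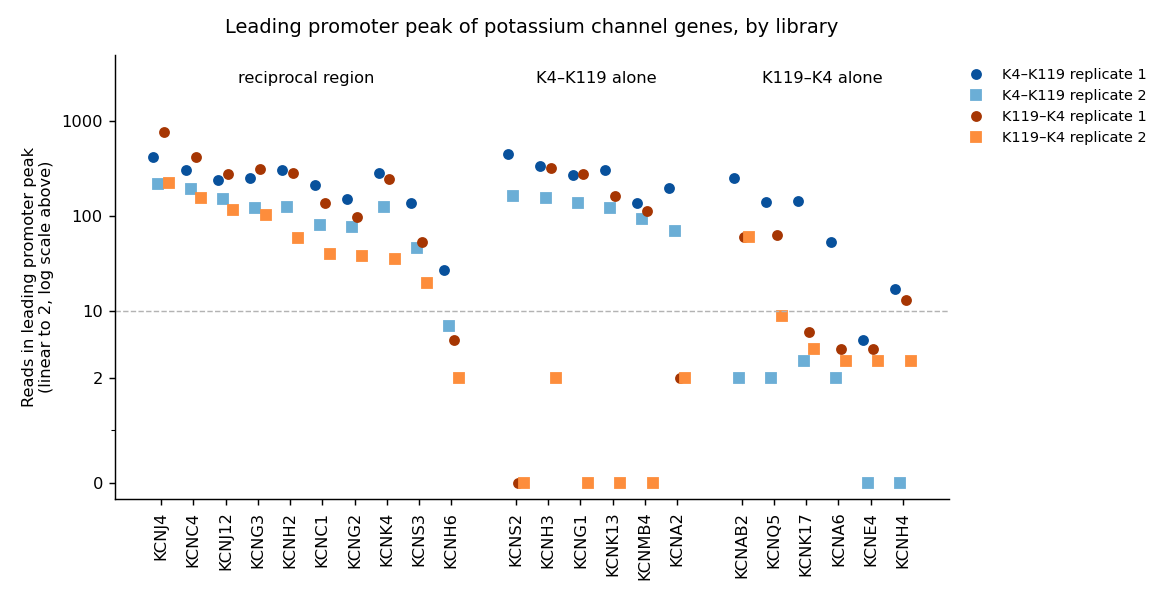
Reads in the leading promoter peak in each of the 4 reChIP libraries for 10 genes with a reciprocal region and for 6 genes each with a reproducible peak in K4–K119 alone or K119–K4 alone, ranked by the lowest count. The vertical axis is linear up to 2 reads and logarithmic above, with a dashed line at 10 reads; of the 10 genes only KCNH6 falls under that line, and K119–K4 replicate 2 is at 0 or 2 reads in all 6 genes of the middle group.

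Of the 16 KCNJ genes, which encode inward rectifiers, 14 had no reproducible peak in either order. The other 2 had reciprocal regions (12.5%, beside 20.9% of all genes) and ranked high. In each order, reproducible peaks lay at 12.5% of the class, beside 33.0% (K4–K119) and 30.0% (K119–K4) of all genes. The median CpG count around the canonical start was 93 in this class and 115 in all genes. KCNJ4 held 418 and 216 reads with H3K4me3 first and 776 and 222 with H2AK119ub first, over 3100 bp from 38453601 to 38456700 on chromosome 22 and almost centred on its single annotated start. Its lowest count summed over the region, 218, exceeded that of 95.7% of all regions. KCNJ12 held 240 and 151 against 278 and 116 reads, over 2900 bp from 21375901 to 21378800 on chromosome 17. KCNJ18 is a near-identical copy of KCNJ12, and reads of the pair may have been divided by the aligner; KCNJ18 had 3 reads in K119–K4 replicate 2 and no kept peak in the other reChIP libraries. Between these genes and the rest of the class there was a gap: the highest of the other KCNJ genes in K4–K119 replicate 1 was KCNJ5 with 113 reads, followed by 2 in replicate 2 and no kept peak in K119–K4.

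Two-pore-domain channels carry background leak currents. KCNK4, which encodes the mechanosensitive channel TRAAK, was the 1 gene of 15 with a reciprocal region (6.67%, beside 20.9% of all genes). It held 285 and 125 reads with H3K4me3 first and 249 and 35 with H2AK119ub first, from 64290601 to 64293400 on chromosome 11, over exons 1 and 2 of its canonical transcript. KCNK12 had reproducible peaks in both orders that overlapped, but by too little for the rule. With H3K4me3 first the joined peak held 511 and 203 reads over 3800 bp, and with H2AK119ub first it held 3 and 7 reads over 500 bp at the edge of the former. A larger peak of 201 reads in K119–K4 replicate 1 had no kept match in replicate 2, where 34 reads lay in a peak with a log2 fold of 0.65. KCNK13, the close relative of KCNK12, held 303 and 122 reads in K4–K119 and 162 in K119–K4 replicate 1, with no kept peak in replicate 2. KCNK17 had reproducible K119–K4 peaks of 6 and 4 reads, with 143 and 3 reads in K4–K119.

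Calcium- and sodium-activated channels had reproducible K4–K119 peaks at 4 of 8 genes, a reproducible K119–K4 peak at 1, KCNMA1, and a reciprocal region at none, beside 33.0%, 30.0% and 20.9% of all genes. KCNMA1 encodes the large-conductance calcium-activated pore, and its joined peaks of the 2 orders lay at different starts. With H3K4me3 first the peak held 270 and 92 reads, from 77636301 to 77639000 on chromosome 10, and with H2AK119ub first 2 and 2 reads, from 77078701 to 77078900. In K119–K4 replicate 1, 111 reads lay in a peak that stayed out with a log2 fold of 0.38. KCNN2, a small-conductance channel gene, held 115 and 39 reads in K4–K119, with 0 and 2 in K119–K4. At both genes nearly all kept reads were from the K4–K119 order. Of the 17 auxiliary and regulatory genes, none had a reciprocal region. A reproducible K4–K119 peak lay at 2 of them (11.8%, beside 33.0% of all genes). A reproducible K119–K4 peak lay at 2 others (11.8%, beside 30.0%). KCNMB4, a beta subunit of the KCNMA1 channel in neurons, held 139 and 93 reads with H3K4me3 first and 113 and 0 with H2AK119ub first. KCNAB2, a cytoplasmic beta subunit, held 251 and 2 against 60 and 61. Its joined peak with H2AK119ub first had 60 and 38 reads, as the peak of 61 reads lay beside it. With no filter on the fold, KCNAB2 had 140 reads in K4–K119 replicate 2, at a log2 fold of 0.90, and gained a reciprocal region.

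Many promoters had a large peak in K4–K119 replicate 1 and little elsewhere. KCNN1, a small-conductance calcium-activated channel gene, held 355 and 0 against 0 and 5 reads. KCNK6, a leak channel gene, held 263 and 0 against 0 and 0, and KCNF1, of an electrically silent subunit, held 150 and 0 against 0 and 0. The fold filter had a part in some of these counts by its construction: before it, KCNN1 had 355 and 113 against 158 and 5 reads, whereas KCNK6 and KCNF1 had no listed peak in the other 3 reChIP libraries. KCNIP3, a calcium-binding channel partner, had 248 and 229 reads in the first replicates of the orders, and 0 and 3 in the second, where a peak of 111 reads in K4–K119 was removed by the filter (log2 fold 0.49). With all listed peaks counted, 16 genes had at least 10 reads in each of the 4 libraries, and 4 of them had no reciprocal region. No share of all genes was counted for listed peaks, so this count is not compared.

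Reproducible peaks in K119–K4 alone held few reads. Among the 6 genes of highest rank, KCNAB2 was the only one with 10 or more reads in both K119–K4 replicates. KCNQ5 followed with 64 and 9, KCNH4 had 13 and 3, and KCNK17, KCNA6 and KCNE4 had at most 6. Over all 96 genes, 13 of the 23 with a reproducible K119–K4 peak kept one when at least 10 reads per peak were required (56.5%, beside 81.7% of all genes with such a peak), compared with 24 of 30 for K4–K119 (80%, beside 89.6%).

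By the letter after KCN, genes of 7 of 19 letters had a reciprocal region. Among them were G with 2 of 4 genes, S with 1 of 3, H with 2 of 8, J with 2 of 16 and K with 1 of 15. The other 12 letters held 41 genes and no region. The largest of them was A with 11 genes, 8 alpha subunits and 3 KCNAB beta subunits, of which 3 had a reproducible K4–K119 peak and 2 a reproducible K119–K4 peak. The letters M (5 genes), E (5), I (4) and N (4) followed, and the others had at most 3. All groups are small, and no test was made between letters.

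Genes with a reciprocal region were rich in CpG. In the 3001 bp around the canonical start, the median was 131 CpG in the 96 genes and 115 in all genes. The 13 genes with a reciprocal region had a median of 208, and the 58 with no reproducible peak had 90.5. All genes were divided by this count into 4 classes of about equal size, with lower limits of 0, 68, 115 and 159 CpG. Of the 13 genes, 12 belonged to the highest class, and the other was KCNH6 with 98. Within the highest class, 12 of 38 potassium channel genes (31.6%) had a reciprocal region, beside 49.1% of all genes of that class. For K4–K119 peaks the shares there were 60.5% and 63.5%, and for K119–K4 peaks 47.4% and 62.3%. In the class below, 0 of 19 had a region, beside 23.3% of all genes. Some genes of the highest class had no reproducible peak at all. KCNK9, a leak channel gene, with 287 CpG, KCND3, a transient outward channel gene, with 251, KCNA3, known from T lymphocytes, with 229 and KCNA7 with 226 were the 4 of highest count. KCND3 held 307 and 8 reads with H3K4me3 first and 4 and 2 with H2AK119ub first. KCNK9 held 413 and 2 against 169 and 2, and the fold filter had removed larger peaks at both. These held 107 reads in K4–K119 replicate 2 (log2 fold 0.95) and 112 in the first K119–K4 library (0.86) at KCND3, and 116 in K4–K119 replicate 2 (0.79) at KCNK9. KCNA3 and KCNA7, whose sequences are shown above, had 105 and 64 reads in K4–K119 replicate 1 and no kept peak in the other reChIP libraries.

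**Figure D3:**
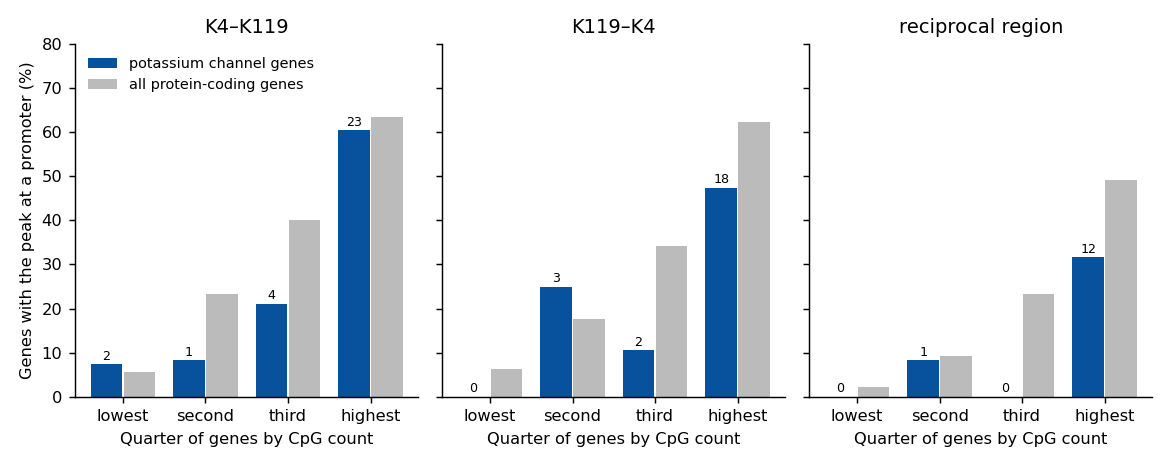
Share of potassium channel genes (blue) and of all protein-coding genes (gray) with a reproducible K4–K119 peak, a reproducible K119–K4 peak or a reciprocal region, by class of CpG count around the canonical start. The vertical axis is percent of genes in the class and the numbers give the potassium channel genes; in the highest class, 31.6% of them had a reciprocal region beside 49.1% of all genes.

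The 14 regions at these 13 genes were broad. Their median width was 3000 bp, beside 2100 bp for all 4015 reciprocal regions. They reached further into the gene than away from it: of the 12 regions with 1 canonical start inside, 11 extended more downstream than upstream, beside 91.2% of all such regions. The exception was KCNH6, with 657 bp upstream and 342 bp downstream. KCNJ12 reached 2443 bp into the gene from its start and 456 bp upstream.

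**Figure D4:**
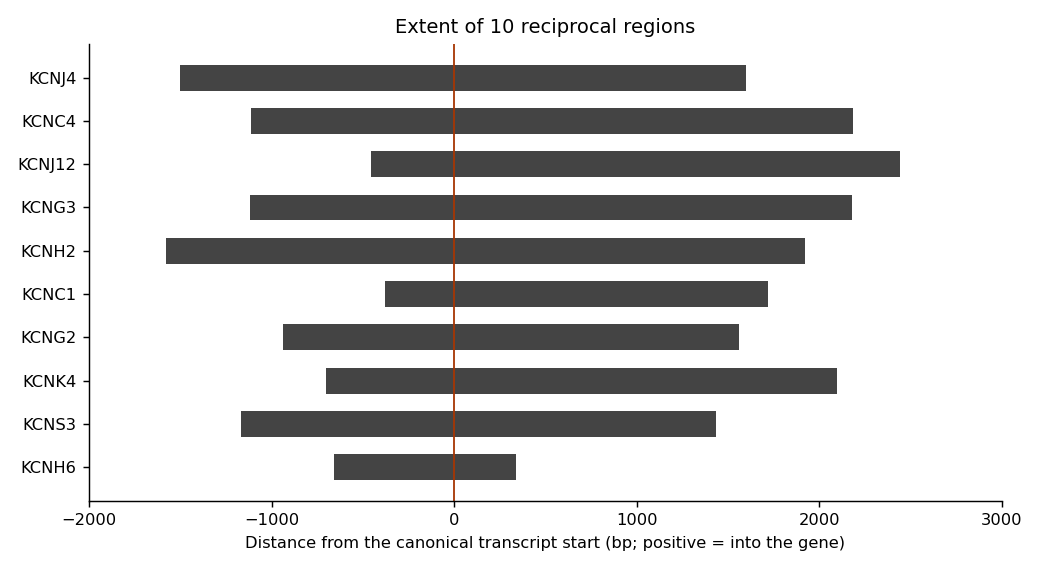
Extent of 10 reciprocal regions, 1 at each gene described, relative to the canonical transcript start of the potassium channel gene, in bp, with positive values into the gene; regions are ordered from the highest (top) to the lowest count in their weakest library. All 10 contain the start, and only KCNH6 reaches further upstream (657 bp) than downstream (342 bp).

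Replicate 2 held fewer reads than replicate 1 in both orders. At the 12 genes with 10 or more reads in every library, replicate 2 held from 0.331 to 0.631 of the reads of replicate 1 in K4–K119, and from 0.141 to 0.448 in K119–K4. Over all reciprocal regions these fractions were 0.528 and 0.417. KCNK4, at 0.141, fell most, and its widths changed with its reads, from 2400 bp in K119–K4 replicate 1 to 1300 bp in replicate 2.

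Whether one antibody order recovered more of these regions was tested with edgeR's quasi-likelihood test on reads in kept peaks. The test covered each of the 4015 regions, with Benjamini-Hochberg adjustment over all of them. A region needed reproducible peaks in both orders to enter, so promoters with one in 1 order alone, such as that of KCNS2, were left out beforehand. None of the 14 regions was called in either direction at an adjusted p of 0.05, and none of the 4015 was (0% higher and 0% lower in K4–K119). At an unadjusted p of 0.05, 6 of 14 (42.9%) passed, beside 20.4% of all regions, and DESeq2 called none of the 14, beside 1.17% of all. The largest differences, as log2 of K4–K119 over K119–K4, at the genes described were 2.05 ± 0.63 (SE, edgeR) at KCNH6 and 1.16 ± 0.34 at KCNS3, each with an adjusted p of 0.14. Per kb of called width the difference at KCNH6 was 0.11, and without K4–K119 replicate 1 it was 1.38 at KCNH6 and 0.76 at KCNS3. At KCNJ4 the difference was of the other sign, −0.69 ± 0.22 (adjusted p = 0.146, edgeR). KCNJ12, at −0.10 ± 0.20 (adjusted p = 0.816, edgeR), was the closest to 0 of the genes described. The median difference was 0.26 over the 14 regions, of which 9 were positive, and 0.01 over all 4015. Libraries were scaled to the reads in these same 4015 regions, so a median near 0 over all of them is set by the scaling. Each difference is therefore relative to the average region, and the test cannot show whether 1 order recovered more in total. Per kb of called width the medians were −0.22 and −0.30, with 6 of 14 positive. The p-values rest on 2 replicates an order, and a missed threshold does not show that the orders recovered these regions alike. The KCNK4 region, at 0.60 ± 0.40 (adjusted p = 0.431, edgeR), passed without K119–K4 replicate 1 (1.67, adjusted p = 0.0209), and over all alternatives its adjusted p ran from 0.00408 to 0.999.

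**Figure D5:**
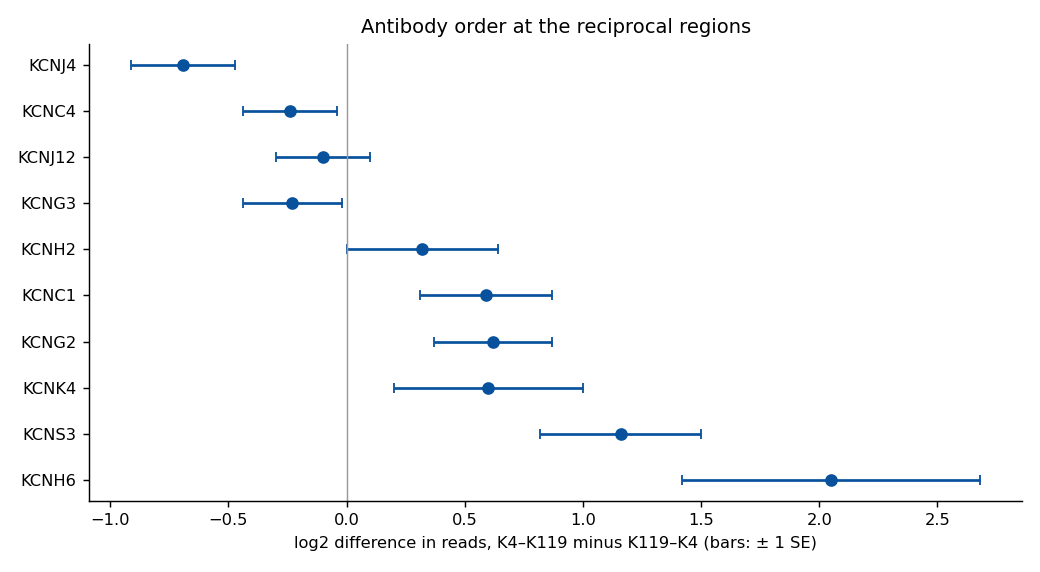
Difference between antibody orders at the same 10 reciprocal regions, as log2 of reads in K4–K119 over K119–K4 from edgeR with bars of ± 1 SE; 2 libraries per order. Regions are ordered as in the plot of extents, from the highest count in the weakest library at the top; values run from −0.69 at KCNJ4 to 2.05 at KCNH6.

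The IgG–IgG control had far fewer reads in kept peaks at these promoters, and its reads outside peaks are unknown. A kept peak of either control library lay at 25 of the 96 genes (26.0%), beside 19.2% of all genes, and each held 2 reads except 1 of 3 reads at KCNH1, a voltage-gated channel gene. No potassium channel gene had a joined peak of both control libraries, beside 0.0401% of all genes. Peaks in both control libraries without that overlap were found at 5 genes, among them KCNT1, KCNB2, KCNAB2 and KCNJ5, with 2 reads each time. No share of all genes was counted for these 5, so the count is not compared. Within the reciprocal regions themselves, a control peak of 2 reads lay at KCNG2 in replicate 2 and at KCNK4 in replicate 1. When reChIP peaks overlapping a control peak were removed, these 2 genes lost their region and 11 kept theirs.

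Other ion channel and potassium transport genes gave a measure of the range. Among 27 other genes of potassium transport, which include HCN channels, sodium-potassium pump subunits and cation-chloride cotransporters, 8 (29.6%) had a reciprocal region. Among 26 CACN calcium channel genes it was 6 (23.1%), and among 14 SCN sodium channel genes 1 (7.14%), beside 20.9% of all protein-coding genes. Their median CpG counts were 161, 145 and 74.5, beside 131 in the potassium channel genes. The promoter DNA per gene was also larger in these families. Its medians were 12026, 10050 and 11000.5 bp, beside 6097 bp in the potassium channel genes. No test was made between these families.

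Away from promoters, peaks inside potassium channel genes were counted where they lay at no promoter of any protein-coding gene. With H2AK119ub first, 26 of the 96 genes (27.1%) held such a reproducible peak, beside 10.4% of all genes. With H3K4me3 first it was 8 genes (8.33%), beside 3.48%. Nearly all of the K119–K4 peaks held fewer than 10 reads in each replicate, and so did most of the K4–K119 peaks. No test was made, and the part of gene length in these shares was not tested. Over the genome, 6705 reproducible K119–K4 peaks and 2059 K4–K119 peaks lay at no promoter. KCNIP1, which encodes a potassium channel-interacting protein, held 6 of the 47 K119–K4 peaks in these genes, with 2 to 4 reads in replicate 1 and 2 in replicate 2.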

How the data were processed

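The 6 deposited peak lists, 1 per library, were used. The submitters' processing notes and the study's methods name Trim Galore 0.6.6 for trimming, BWA 0.7.13 for alignment (hg38), and SAMtools 1.9, Picard 2.6.0 and deepTools 3.5.0. Peaks were called by the authors for every replicate with EPIC2, in 100 bp bins and against genomic input. Each count column holds deposited whole numbers of reads or input reads in a peak, unscaled. The p-value and FDR columns are the authors' within-library comparison of both counts, the log2 column is the authors' fold over scaled input, and the score column is a deposited multiple of the log2 fold with an upper limit. A peak with 0 input reads has a very high fold even with 2 reads.

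Samples were grouped by the antibodies in the labels. Peaks on chromosomes 1 to 22 and X with log2 fold above 1 and FDR below 0.05 were kept, and joined at over 25% of both peaks; the study's methods do not name the peak that the 25% refers to, and its blacklist was not used here. Promoters were 1500 bp either side of all GENCODE v44 starts of protein-coding genes, CpG was counted in hg38 around the Ensembl canonical start, and promoter sequences are from RefSeq. The potassium channel genes, the classes, the comparison families and the tests were chosen with earlier results of these data known.

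Reads in kept peaks were summed over each reciprocal region and tested for antibody order with edgeR 4.0.16 (TMM scaling, glmQLFit and glmQLFTest, 4 reChIP libraries, no block) and, as an alternative, DESeq2 1.42.0, in R 4.3.3. The SE is the log2 difference divided by the square root of F. Joining and testing were checked on simulated data. The replicates of each reChIP order differed by more than sampling noise and were counted as 2. Counts are over all 96 genes, but some genes are not reported here by name or value. Otherwise, genes named were those with a region, those ranked highest for 1 order alone by the lowest read count, those with control peaks of 3 reads or in both libraries, the 4 of highest CpG with no reproducible peak and those with no kept peak; KCNQ1, KCNQ3, KCNC2, KCNJ16, KCNJ18, KCNK12, KCNMA1, KCNN1, KCNN2, KCNK6, KCNF1, KCNIP1 and KCNIP3 were added after their values were seen. Alternatives were other fold, FDR, read and input minimums, windows and overlaps, each library left out, removal of control peaks, a replicate block and, for the order test, other scalings. Counts of peaks cover calls, not depth, and intervals were not given. Other software was matplotlib 3.10.9, pysam 0.24.0, numpy 2.4.6 and pandas 2.3.3 under Python 3.11.15.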

Additional observations from a re-analysis of the deposited data

How the results depend on the processing

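With a log2 fold above 2, reciprocal regions were found at 6 genes (6.25%, all genes 6.28%), reproducible K4–K119 peaks at 16 (16.7%, 13.7%) and K119–K4 peaks at 13 (13.5%, 15.3%). An overlap of over 50% gave 8 (8.33%, 15.9%) and, for K119–K4, 14 (14.6%, 24.5%). At least 10 reads per peak gave 13 genes for K119–K4 (13.5%, all genes 24.5%) and 0 for IgG–IgG (0%, 0%). At least 1 input read gave 14 (14.6%, 23.8%) and 1 (1.04%, 0.601%). For IgG–IgG, 500 bp windows gave 15 genes (15.6%, all genes 9.64%) and the canonical start alone 12 (12.5%, 7.55%). Leaving out each library gave 12 to 20 genes with a region (12.5% and 20.8%, all genes 21.5% and 27.0%), the 20 without K119–K4 replicate 2. For IgG–IgG it gave 14 to 16 (14.6% and 16.7%, all genes 10.7% and 10.3%). For K4–K119 it gave 54 to 78 (56.2% and 81.2%, all genes 52.3% and 78.3%). For K119–K4 it gave 64 to 66 (66.7% and 68.8%, all genes 64.2% and 61.5%). In single libraries of the 2 orders these shares were above those of all genes. For peaks of both replicates under the reported settings they were below them (K4–K119 31.2%, all genes 33.0%, and K119–K4 24.0%, all genes 30.0%). With 1 library of an order left, a peak needs no second replicate, which raises the counts of the orders, while for IgG–IgG a peak in either library counted, and 1 library holds fewer. Of the 10 genes described, KCNJ4 and KCNC1 had a region under all 15 alternatives to the peak rules, KCNH6 lost its region in 6, and each of the other 7 in 1 or 2.

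Antibody order called 0 or 1 of the 14 regions when a library was left out (1 without K4–K119 replicate 2 and 1 without K119–K4 replicate 1), the lone library of an order being assumed to vary like the rest. Replicate numbers are shared between orders, but the labels do not say that a number marks a shared culture; deviations of same-numbered libraries correlated at 0.378 across 4015 regions. With a replicate block, where same-numbered libraries of both orders were joined first, 12 genes had a region, and the order test called 8 of the 14 (6 higher, 2 lower in K4–K119) and 1004 of all 4015 regions. At the genes described, the difference changed sign at KCNH2 (−0.39 per kb, −0.05 without K119–K4 replicate 2) and at KCNJ12 (0.02 without K4–K119 replicate 1). With 1 library left out, these ran from −0.05 to 0.96 at KCNH2 and −0.22 to 0.02 at KCNJ12. The other differences described kept their sign. The causes were not tested. Reads outside peaks are unknown, and a gene without a kept peak cannot be called unmarked.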
